A study of Mus musculus with 14 samples.

Results

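The OCT4 ChIP of mouse ES (embryonic stem) cell clone A6 gave 2532 peaks, of 24416 peaks in the 8 ChIP-seq lists of the series. Every peak of this list was taken and compared with the 14815 peaks of the NANOG ChIP of the same clone. An OCT4 peak was called shared when a NANOG peak lay less than 100 bp from it, edge to edge. SIM2 played no part in the choice of peaks.

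The series mapped the binding of SIM2, a bHLH/PAS transcription factor, in mouse ES cells. Clone A6 is a single clone of the EBRTcH3 (EB3) line that carries a Sim2-FLAG transgene under the tetracycline-responsive hCMV*-1 promoter, driven by the tTA transactivator. Both ChIPs used A6 cells induced by removal of tetracycline for 26 h, so OCT4 and NANOG were mapped in cells that overexpressed SIM2, with 1 library per factor and 1 input for both. The cells grew on gelatin in medium with serum and LIF, and the antibodies were anti-Oct3/4 (N-19) and anti-Nanog (D2A3).

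OCT4, the product of Pou5f1, is a POU-domain factor that reads the octamer element and often pairs with SOX2 on a composite element made of adjoining SOX and POU sites. NANOG is a homeodomain factor. Together with SOX2 they occupy the enhancers that keep ES cells pluripotent, and the Mediator complex, of which MED1 and MED12 are subunits, connects factors bound at enhancers with RNA polymerase II at promoters.

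The 10 OCT4 peaks that the results turn on most are printed here over their deposited interval, on the plus strand of mm9. Capitals mark exact matches, on either strand, to the composite letters TTGTNATGC or the octamer letters ATGCAAAT, which overlap in ATGC. The first 5 had a NANOG peak. They include the upstream peak of Pou5f1, the strongest peak of Sox2 and a peak at -1714 bp from the start of Dppa3. That last peak also lay within 100 kb of the start of Nanog. The rest are the peaks ranked 1 and 3 in the OCT4 list by tag count.
Pou5f1, shared, chr17:35640907-35641093: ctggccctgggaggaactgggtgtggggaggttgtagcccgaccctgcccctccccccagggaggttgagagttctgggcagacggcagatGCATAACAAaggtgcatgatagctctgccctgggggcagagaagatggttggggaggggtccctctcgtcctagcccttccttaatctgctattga
Sox2, shared, chr3:34552875-34553061: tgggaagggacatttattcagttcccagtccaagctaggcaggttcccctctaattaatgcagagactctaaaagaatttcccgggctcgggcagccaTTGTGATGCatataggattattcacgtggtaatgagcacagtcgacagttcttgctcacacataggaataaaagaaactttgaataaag
Dppa3 and Nanog, shared, chr6:122574621-122574807: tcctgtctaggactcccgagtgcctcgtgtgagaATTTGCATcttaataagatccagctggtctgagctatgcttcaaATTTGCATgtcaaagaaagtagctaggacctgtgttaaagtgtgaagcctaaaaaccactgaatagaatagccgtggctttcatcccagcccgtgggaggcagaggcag
Gm4609, shared, chr3:121848375-121848561: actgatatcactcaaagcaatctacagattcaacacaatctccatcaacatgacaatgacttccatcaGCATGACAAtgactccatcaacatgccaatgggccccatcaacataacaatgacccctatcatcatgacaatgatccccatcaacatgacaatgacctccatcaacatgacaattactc
Slain2, shared, chr5:73293651-73293837: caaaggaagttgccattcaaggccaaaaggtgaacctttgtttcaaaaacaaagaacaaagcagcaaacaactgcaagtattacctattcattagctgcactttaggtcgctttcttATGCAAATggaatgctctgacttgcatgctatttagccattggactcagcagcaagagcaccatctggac
The other 5 had no NANOG peak. They hold the strongest such peak, near Jarid2, the pair of strong ones with 2 composite matches each, a GC-poor one near Diap3, and the peak closest to the Nanog promoter.
Jarid2, OCT4 only, chr13:44817734-44817920: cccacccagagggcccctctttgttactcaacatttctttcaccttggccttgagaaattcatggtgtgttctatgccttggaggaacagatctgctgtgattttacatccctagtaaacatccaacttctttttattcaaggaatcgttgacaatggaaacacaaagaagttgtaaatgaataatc
Epha4, OCT4 only, chr1:77449351-77449537: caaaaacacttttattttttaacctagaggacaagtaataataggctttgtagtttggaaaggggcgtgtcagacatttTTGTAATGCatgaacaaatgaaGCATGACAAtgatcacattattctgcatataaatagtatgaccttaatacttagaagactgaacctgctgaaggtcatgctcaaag
Dgkg, OCT4 only, chr16:22637509-22637695: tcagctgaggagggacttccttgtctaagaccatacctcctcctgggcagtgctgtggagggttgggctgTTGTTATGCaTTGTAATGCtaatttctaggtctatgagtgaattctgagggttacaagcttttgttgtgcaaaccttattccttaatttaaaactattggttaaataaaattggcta
Diap3, OCT4 only, chr14:86202541-86202727: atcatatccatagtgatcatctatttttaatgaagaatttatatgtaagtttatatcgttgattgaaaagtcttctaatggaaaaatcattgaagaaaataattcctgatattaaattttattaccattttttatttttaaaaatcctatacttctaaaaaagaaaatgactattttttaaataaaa
Nanog, OCT4 only, chr6:122652993-122653179: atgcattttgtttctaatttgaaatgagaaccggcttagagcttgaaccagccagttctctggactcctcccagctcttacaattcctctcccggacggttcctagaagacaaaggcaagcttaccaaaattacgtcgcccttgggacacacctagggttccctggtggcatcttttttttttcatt
In the Pou5f1 peak the composite match lay 2 bp from the OCT4 centre, and in the Sox2 peak 9 bp. The Diap3 interval had a GC content of 18.7%, against 60.4% in the Pou5f1 interval. The Jarid2, Diap3 and Nanog intervals held neither set of letters.

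Almost every OCT4 peak was also a NANOG peak, while few NANOG peaks were OCT4 peaks. Of the 2532 OCT4 peaks, 2395 (94.6%, 95% Wilson interval 93.6 to 95.4) had a NANOG peak and 137 (5.41%, 4.60 to 6.36) did not. Of the NANOG peaks, 2395 (16.2%, 15.6 to 16.8) had an OCT4 peak and 12420 did not. Each shared OCT4 peak had exactly 1 NANOG peak in the window. These intervals and those that follow cover counting error only. OCT4, NANOG, MED1 and MED12 had 1 library each in clone A6, so no difference could be tested against the spread between cultures. The paper also ran OCT4 and NANOG ChIPs in the EB3 parental line, but those libraries are not among the ones used here.

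The lists differ in length and strength, which bears on these shares. The normalized tag count, the signal that HOMER scaled to library size, ran from 1.6 to 33.3 with a median of 5.4 in the OCT4 list and from 0.8 to 64.3 with a median of 6.2 in the NANOG list. The fold over the input had medians of 5.23 and 6.91, and 328 OCT4 and 5712 NANOG peaks reached at least 8 times the input. The tag counts rose in equal steps of 1 tag, which under a scale of 10 M tags correspond to 31.5 M tags for OCT4 and 12.9 M for NANOG. The score of a peak, also in tags, exceeded its tag count expressed in tags, for a reason that the lists do not state. Because the scales were set separately, tag counts were compared within a list and the lists were compared by rank. With only as many NANOG peaks as OCT4 peaks, taken from the highest tag count down, 59.4% (57.5 to 61.3) of the OCT4 peaks were shared.

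The paired centres lay close together. At the 2395 shared peaks the median distance between the OCT4 and the NANOG centre was 26 bp, with quartiles of 13 and 50 bp. Of all OCT4 peaks, 1168 (46.1%) had a NANOG centre within 25 bp, 1799 (71.1%) within 50 bp and 2233 (88.2%) within 100 bp. The deposited intervals are 186 bp wide for OCT4 and 166 bp for NANOG, so the window admitted centre distances below 276 bp. The 5 peaks nearest the limit on its inner side had centre distances of 261, 261, 269, 269 and 275 bp and OCT4 tag counts of 5.1, 4.4, 5.1, 4.4 and 4.1. On the outer side the distances were 277, 281, 285, 289 and 289 bp and the tag counts 6.3, 5.7, 5.1, 5.7 and 4.8. Tag counts on both sides of the limit overlapped.

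**Figure D1:**
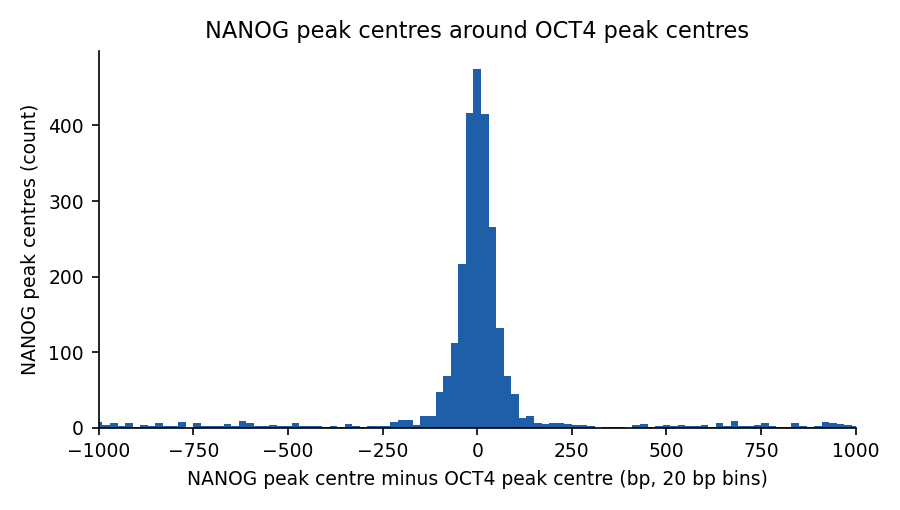
Number of NANOG peak centres (vertical axis) by their position relative to each OCT4 peak centre (horizontal axis, bp, bins of 20 bp). The centres gather at the OCT4 centre, with a median distance of 26 bp at the 2395 shared peaks, and few lie between 276 and 1000 bp.

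Some OCT4 peaks without NANOG in the window still lay near a NANOG peak. Among the 137, the nearest NANOG centre was at a median of 13719 bp, with quartiles of 1136 and 59930 bp. It lay within 1 kb in 30 (21.9%, 15.8 to 29.5), within 10 kb in 62 (45.3%) and within 100 kb in 115 (83.9%). The largest distance was 584238 bp.

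Within its own list, each factor had higher tag counts where both were together. The OCT4 normalized tag count had a median of 5.4 (quartiles 4.4 and 7) at shared peaks and of 4.4 (3.8 and 5.1) at OCT4 peaks without NANOG, a difference of 0.30 on the log2 scale. The NANOG normalized tag count had a median of 13.9 (9.3 and 19.4) at peaks with OCT4 and of 5.4 (4.6 and 7.7) at peaks without, a difference of 1.36 on the log2 scale. The ranges overlapped in both lists, and among peaks at least 8 times the input these differences were 0.17 for OCT4, with only 3 peaks without NANOG, and 0.74 for NANOG. The highest OCT4 peak without NANOG had a tag count of 10.5 against 33.3 with NANOG, and the highest NANOG peak without OCT4 had 49.6 against 64.3. The focus ratio, the fraction of a peak's tags placed as a point source would place them, was alike, with medians of 0.746 and 0.765 in the OCT4 classes and of 0.759 and 0.762 in the NANOG classes.

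The share with the partner changed with rank far more in the NANOG list than in the OCT4 list. When each list was cut by tag count into 10 groups of equal size, from group 1, the highest, to group 10, 99.6% (253 of 254) of OCT4 peaks in group 1 and 90.5% (229 of 253) in group 10 had a NANOG peak, a difference of 9.09 points (95% Newcombe interval 5.57 to 13.3). The lowest share was 88.5%, in group 9. In the NANOG list the share with an OCT4 peak was 71.7% (1063 of 1482) in group 1, 37.7% in group 2, 20.2% in group 3, 11.3% in group 4 and between 2.09% and 7.35% in the others. The difference between groups 1 and 10 was 69.2 points (66.6 to 71.5). Over the whole lists the shares were 94.6% and 16.2%, so the OCT4 share lay near its upper limit, with less room to change. The part of the unequal list lengths, 2532 and 14815 peaks, in this contrast was not tested.

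**Figure D2:**
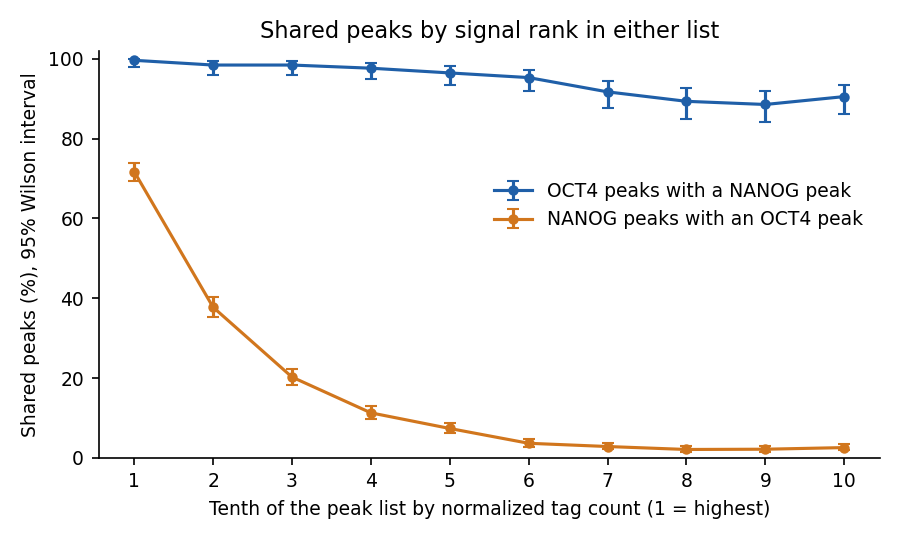
Share of peaks with a peak of the other factor (vertical axis, percent, bars are 95% Wilson intervals) by group of 10% of each list, ranked by normalized tag count (horizontal axis, 1 is the highest). OCT4 peaks stay between 88.5% and 99.6%, while NANOG peaks go from 71.7% to 2.57%.

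Across the 2395 pairs the ranks of the factors went together in part. Spearman's rho between the normalized tag counts was 0.49 and Pearson's r of their log2 values 0.51. With the peak score the rho was 0.55, and with the fold over the input 0.52. These correlations are across peaks, which share cells, input and local sequence and are not independent replicates. The NANOG partner of an OCT4 peak stood at a median of 11.98% from the top of the NANOG list (quartiles 4.97% and 26.0%), and 1063 partners (44.4%) were in its top 10%. In the lower 50% of the NANOG list lay 197 partners (8.23%).

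The strongest peaks coincided most. All 100 of the OCT4 peaks with the highest tag counts had a NANOG peak, and 94 of these partners were in the top 10% of the NANOG list. Of the 100 NANOG peaks with the highest tag counts 94 had an OCT4 peak. Ranked among the 2395 pairs alone, only 41 pairs were in the top 100 by both tag counts. When the pairs were cut into 5 groups by OCT4 tag count, from the highest to the lowest, the median NANOG tag count of the partner was 22.5, 15.5, 13.9, 11.6 and 10.1. The partner belonged to the highest 20% of the paired NANOG peaks in 54.7% of pairs in the highest OCT4 group and in 5.19% of pairs in the lowest.

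**Figure D3:**
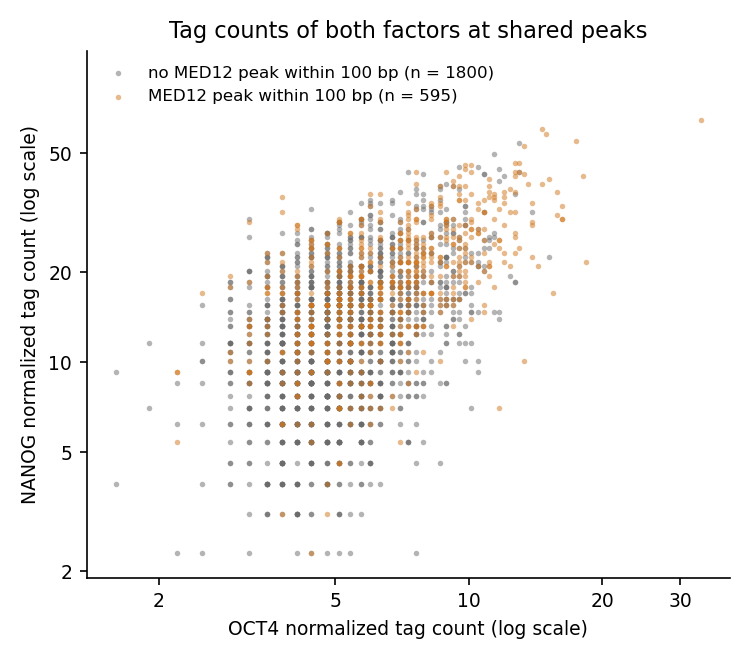
NANOG normalized tag count (vertical axis, log scale) against OCT4 normalized tag count (horizontal axis, log scale) at the 2395 shared peaks, each point a pair, with the 595 pairs that had a MED12 peak in orange. The tag counts rise together with wide scatter (Spearman's rho 0.49), and the peak near Gm4609 stands at the upper right with 33.3 and 64.3.

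The 10 peaks with the highest OCT4 tag counts were all shared. The peak in an intron near Gm4609 (chr3:121848375-121848561) had the highest tag count of both lists, 33.3 for OCT4 and 64.3 for NANOG, and holds 8 letters repeated in 5 copies in its window, and how reads were placed there is not known from the list. The peak in an intron near Cnot2, a subunit of the CCR4-NOT deadenylase complex, had tag counts of 18.4 for OCT4 and 21.7 for NANOG. At the peak upstream of Slain2, a microtubule regulator, these were 18.1 and 41.8, and at the peak near Tnfsf11, the cytokine RANKL, 17.4 and 55. A peak 41103 bp downstream of the start of Klf5, a zinc finger factor of naive ES cells, had 16.2 and 33.3, and an intronic peak near Trp53, the tumour suppressor p53, had 16.2 and 30.2. The others lay near Bckdhb, Lekr1, Gm6994 and Prune2, with OCT4 tag counts from 15.5 to 16.2. All 10 had a MED12 peak.

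The OCT4 peaks without NANOG were weaker. Their highest tag count, 10.5, was at a peak at -7077 bp from the start of Jarid2, a cofactor of the Polycomb complex PRC2. This peak ranked 107 in the OCT4 list, its nearest NANOG centre lay 349 bp away, and it had a MED12 peak. Next came peaks near Epha4, an ephrin receptor, at 8.2 and Srbd1 at 8.2, the latter with 8 letters repeated in 4 copies, then intronic peaks near Tet1, a 5-methylcytosine dioxygenase, at 7.9, near Chd2, a chromatin remodeller, at 7.3 and near Dgkg, a diacylglycerol kinase, at 7.3. The list went on with peaks near Diap3, a formin, at 7, at the promoter of Shroom3 at 6.7, near Prtg at 6.7 and near Gm6685 at 6.3. The Tet1 peak lay 514 bp from a NANOG centre and the Gm6685 peak 277 bp, while the Dgkg peak had none within 163086 bp. Only the peaks of Jarid2, Epha4 and Dgkg reached 8 times the input.

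Pairs far from the diagonal were found in both directions. An intergenic peak near Lrrn3 had an OCT4 tag count of 11.7 (rank 57) and a NANOG tag count of 7 (rank 6217), and a peak near Zeb2, a repressor of E-cadherin, had 10.1 (rank 125.5) and 7 (rank 6217). The other pairs with the largest rank excess for OCT4 were near 5930403N24Rik, Chic1 and Sp8, with OCT4 tag counts of 8.6, 7.6 and 7.9. In the opposite direction, a peak near Sfmbt2, a Polycomb protein, had an OCT4 tag count of 3.8 (rank 2210) and a NANOG tag count of 35.6 (rank 68), and a promoter peak of Ntn1, the guidance cue netrin-1, had 3.8 and 31.8. The peaks near Nt5c2, 1700024G13Rik and Gtf3c3 had OCT4 tag counts of 3.2 and NANOG tag counts of 30.2, 29.4 and 26.3.

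Both classes lay mostly outside promoters. Promoters were defined as 1 kb upstream to 300 bp downstream of the start site of a protein-coding gene. Among shared peaks 1459 (60.9%) were intergenic, 832 (34.7%) intronic and 59 (2.46%, 1.91 to 3.16) at promoters, with 29 in exons and 16 just downstream of genes. Among OCT4 peaks without NANOG 76 (55.5%) were intergenic, 49 (35.8%) intronic and 8 (5.84%, 2.99 to 11.1) at promoters. The promoter share was 3.38 points higher without NANOG (0.440 to 8.66), a difference that rests on those 8 peaks, and it was 0.413 points (-1.19 to 3.09) when shared meant centres within 100 bp. The intergenic share differed by -5.44 points (-14.0 to 2.85) and the intronic share by 1.03 points (-6.75 to 9.55), and both intervals contain 0.

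The promoter peaks, listed because of their placement and after their values were seen, included those of Shroom3, Clcc1, Cdk2ap1, Cpsf6, Pde4d, Gm1631 and Rps26. The OCT4 tag counts of these ran from 3.5 at Rps26, a ribosomal protein gene, to 6.7 at Shroom3, a regulator of apical constriction. NANOG peaks without OCT4 had a promoter share of 3.00%, close to that of shared peaks. The median distance from the OCT4 centre to the nearest start site was 32442 bp (quartiles 10302 and 102242) with NANOG and 26003 bp (9021 and 129222) without, and 74.5% and 72.3% of the peaks lay within 100 kb. With all genes of the annotation in place of protein-coding ones, the log2 ratio of the medians went from 0.32 to -0.01.

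OCT4 peaks seldom stood in groups. Another OCT4 centre lay within 12500 bp of 311 peaks (12.3%), at 12.1% of shared peaks and 15.3% of peaks without NANOG, a difference of 3.22 points (-2.04 to 10.3). Joining such neighbours left 2221 single peaks, 138 pairs, 10 runs of 3 and 1 run of 5. The run of 5, between Atf1 and Tmprss12 (chr15:100079140-100105547), was shared throughout, with a summed OCT4 tag count of 28.9. A run of 3 downstream of Klf4 (chr4:55477252-55490561), a reprogramming factor, had NANOG, MED1 and MED12 peaks at each member and a summed tag count of 29.4. Only 1 of the 3 peaks of a run near Spry2 (chr14:106258391-106260556), an inhibitor of FGF signalling, was shared.

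Lists of genes known in ES cells were compared with all protein-coding genes, of which 4305 of 22202 (19.4%) had an OCT4 peak within 100 kb of a start site. OCT4 peaks were found near 3 of 3 core factor genes, 13 of 15 naive-state regulators (86.7%), 11 of 13 known targets of OCT4 and SOX2 (84.6%), 11 of 15 chromatin and DNA methylation regulators (73.3%) and 9 of 17 genes of the LIF, BMP, FGF and WNT pathways (52.9%). Near lineage regulators, 3 of 17 (17.6%), and housekeeping genes, 3 of 15 (20%), the share was close to that of all genes. At 20 kb, where all genes stood at 5.14%, the counts were 3 of 3, 9, 11, 9 and 7 for the first 5 lists, and 1 and 0 for the lineage and housekeeping genes.

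The 9 OCT4 peaks near the core factor genes had tag counts from 3.5 to 8.6, and 8 of them were shared. Beside this count, and those of the gene lists that follow, stands the share over the whole OCT4 list, 94.6%. Pou5f1 had 1 peak, at -1982 bp from its start (chr17:35640907-35641093), with an OCT4 tag count of only 3.5 (rank 2353) and a NANOG tag count of 19.4 (rank 737), and with MED12. Sox2 had 5 peaks with OCT4 tag counts of 8.6, 6.3, 5.4, 4.4 and 3.5 at 3910, -3627, 18482, 95365 and 85152 bp from its start, and all 5 were shared. The peak at -4421 bp from the start of Nanog (chr6:122652993-122653179) had an OCT4 tag count of 3.8 and no NANOG peak in the window, since the nearest NANOG centre lay 387 bp away, while MED1 and MED12 peaks were present. The other 2 peaks within 100 kb of Nanog, at 7 and 5.4, lay nearer Dppa3 and Gdf3 and were shared.

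Among the naive-state regulators, which sustain the ground state of ES cells, the 29 distinct OCT4 peaks had tag counts from 3.5 to 16.2 with a median of 6.7, and 27 of them were shared. They include the 3 peaks counted above near Nanog, which also lay within 100 kb of Dppa3. Klf5 had 6 peaks within 100 kb, with OCT4 tag counts of 16.2, 12, 7.9, 5.7, 5.4 and 4.8, of which the one at 5.4 had no NANOG peak. The 3 peaks of Klf4 had 11.4, 10.1 and 7.9. The highest peaks of Sall1, Tbx3 and Tfcp2l1, all transcription factor genes, had 13.9, 13 and 10.8, with NANOG tag counts of 34.1, 24 and 34.8. The peak upstream of Zfp42, which encodes the ES cell marker REX1, had an OCT4 tag count of 6.3 and a NANOG tag count of 36.4. Esrrb, which encodes an orphan nuclear receptor, had 1 peak at 6.3 with NANOG at 25.6, and the centres were 253 bp apart. No OCT4 peak lay within 100 kb of Nr0b1 and Tcl1.

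All 16 OCT4 peaks near the known targets of OCT4 and SOX2 were shared, against 94.6% of the whole OCT4 list. The highest was at -10147 bp from the start of Lefty1, an inhibitor of NODAL signalling, with an OCT4 tag count of 10.8 and a NANOG tag count of 27.9, and it also lay within 100 kb of Lefty2. Rif1, a regulator of replication timing, had 9.5 at its promoter. The exonic peak near Fgf4, the growth factor that primes ES cells for differentiation, had 5.1, and the peak just downstream of Utf1 had 3.8. Both values lay below the median of the OCT4 list, 5.4. Nodal and Dppa4 had no OCT4 peak within 100 kb.

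Of the 23 OCT4 peaks near chromatin and DNA methylation genes, 4 lacked NANOG, 1 each near Jarid2, Eed, Mtf2 and Tet1. Jarid2 had 6 peaks within 100 kb, with OCT4 tag counts of 12.4, 10.5, 9.5, 5.4, 5.1 and 3.2, and the one at 10.5 lacked NANOG. Eed, a core subunit of PRC2, had 5 peaks from 4.1 to 8.9, with NANOG absent at the one at 4.4. Mtf2, a PRC2 accessory factor, had 11.1 at a shared peak and 3.8 at a peak without NANOG. Tet1 was alone in the list in having OCT4 without NANOG as its single peak. Ezh2, Dnmt1, Kdm3a and Smarca4 had none.

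Of the 17 OCT4 peaks near signalling genes 14 were shared. Lifr, the LIF receptor, had 2 shared peaks with OCT4 tag counts of 11.4 and 8.6, and Il6st, which encodes its partner gp130, had 2 at 9.5 and 9.2. Id3, a target of BMP signalling, had 9.5 with a NANOG tag count of 38.7, and Fgfr2 had 7.9 with 36.4. Spry2 had 6 peaks between 4.8 and 7, of which 3 lacked NANOG. Stat3, Id1, Id2, Spry4, Dusp6, Axin2, Tcf7l1 and Lef1 had no OCT4 peak within 100 kb. Of the lineage regulators, Eomes had 3 shared peaks, with OCT4 tag counts of 8.2, 7 and 4.8, and Pax6 had 1 at 5.4.

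By the nearest start site, the OCT4 peaks were assigned to 1925 genes, of which 1497 had 1 peak. Shared peaks touched 1849 genes and peaks without NANOG 127, and 51 genes had both, so that 76 genes had OCT4 without NANOG alone. The genes with most peaks were Klf5, Jarid2 and Etl4, with 7 each, of which 6, 6 and 7 were shared. Diap3 had 6, of which only 2 were shared.

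Mediator peaks were more frequent where both factors were present. MED12 lay within 100 bp of 595 of 2395 shared peaks (24.8%, 23.2 to 26.6), of 5 of 137 OCT4 peaks without NANOG (3.65%, 1.57 to 8.26) and of 318 of 12420 NANOG peaks without OCT4 (2.56%, 2.30 to 2.85). The 5 peaks, chosen for naming after their values were seen, lay near Jarid2, Mmp16, Spry2, Nanog and Rps26. Their nearest NANOG centres were 349, 281, 843, 387 and 84892 bp away in that order, while 30 of the 137 had one within 1 kb. The MED12 share was 21.2 points higher at shared than at OCT4-only peaks (16.3 to 23.9). MED1 lay at 274 shared peaks (11.4%, 10.2 to 12.8), at 7 OCT4 peaks without NANOG (5.11%, 2.497 to 10.17) and at 140 NANOG peaks without OCT4 (1.13%). At these 7 peaks the nearest NANOG centre lay 325 to 4124 bp away. The MED1 difference between the OCT4 classes was 6.33 points (1.13 to 9.27). When both sharing and the presence of Mediator meant centres within 100 bp, the difference was 13.4 points for MED12 and 1.51 points for MED1, and when both meant direct overlap of the intervals it was 1.55 points for MED1, where both MED1 intervals contain 0.

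**Figure D4:**
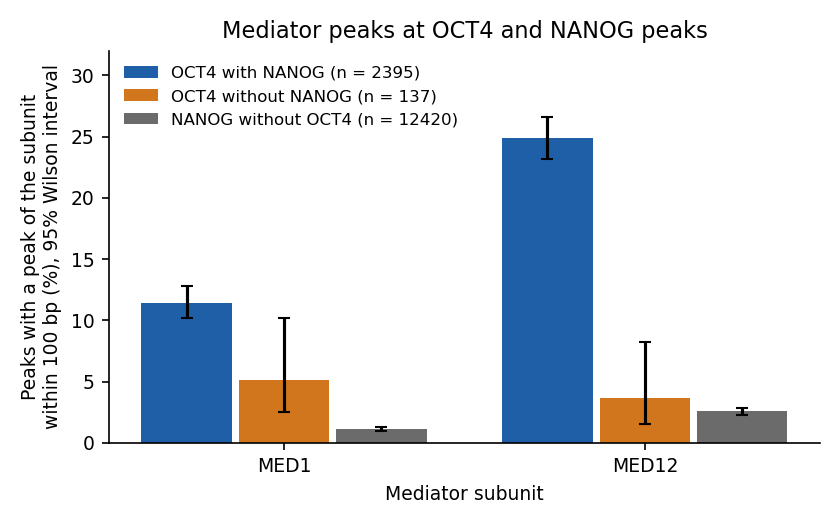
Share of peaks with a MED1 or MED12 peak within 100 bp (vertical axis, percent, starting at 0, bars are 95% Wilson intervals) for shared OCT4 peaks (n = 2395), OCT4 peaks without NANOG (n = 137) and NANOG peaks without OCT4 (n = 12420). MED12 stands at 24.8% of shared peaks against 3.65% and 2.56% in the other classes.

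Peak strength moved with Mediator, so classes were also compared within bands of tag count. The bands are wide, from 14.7 to 64.3 in group 1 of the NANOG list, and strength was not matched within them. MED12 was found at 56.3% of OCT4 peaks in group 1 and at 14.2% in group 10. Among OCT4 peaks with a tag count at or below the list median, MED12 was at 15.5% of 1306 shared peaks and at 3 of 120 peaks without NANOG, a difference of 13.0 points (8.09 to 15.7). For MED1 the difference there was 1.66 points (-3.95 to 4.73), which contains 0. In group 1 of the NANOG list, MED12 was at 38.7% of those with OCT4 and at 14.8% of those without, a difference of 23.9 points (19.2 to 28.1), and in groups 2 and 3 the differences were 11.8 and 7.76 points. The MED1 difference in group 1 of the NANOG list was 12.9 points (9.61 to 15.8). SIM2-FLAG peaks of clone A6 lay at 37.4% of shared peaks and at 10.2% of OCT4 peaks without NANOG, and in clone B8 at 30.8% and 6.57%.

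Near the listed genes, MED12 was at 7 of the 9 OCT4 peaks of core factors, at 21 of the 29 peaks of naive-state regulators (72.4%, 54.3 to 85.3), at 10 of 16 of known targets (62.5%, 38.6 to 81.5), at 12 of 23 of chromatin regulators (52.2%, 33.0 to 70.8) and at 10 of 17 of signalling genes (58.8%, 36.0 to 78.4). It was also at 3 of the 6 peaks of lineage regulators (50%, 18.8 to 81.2) and at 1 of the 4 of housekeeping genes (25%, 4.56 to 69.9), near Tfrc, so the lists overlapped in their intervals. The 3 peaks near both Nanog and Dppa3, 2 of them with MED12, count among the core factors and among the naive-state regulators. Shared and unshared peaks are counted together here, and over the whole OCT4 list MED12 was at 24.8% of shared and 3.65% of unshared peaks.

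The OCT4 peaks without NANOG stood out in base composition. In the 200 bp around the centre, GC content had a median of 41.5% (quartiles 38 and 45) at shared peaks and of 31% (26 and 41) at OCT4 peaks without NANOG, while windows 10 kb to either side had medians of 42.5% and 43%. A GC content below 30% was found in 60 of the 137 peaks without NANOG (43.8%, 35.8 to 52.2), in 57 of the 2395 shared peaks (2.38%, 1.84 to 3.07) and in 4.46% of NANOG peaks without OCT4. Of OCT4 peaks below 30% GC, 48.7% (39.8 to 57.7) had a NANOG peak, and of those at or above 30%, 96.8% (96.0 to 97.4). Within the lower part of the OCT4 list, with tag counts up to the median, the shares were 37.4% (34 of 91) and 95.3% (1272 of 1335). The part of GC content in the sharing of peaks was not tested.

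**Figure D5:**
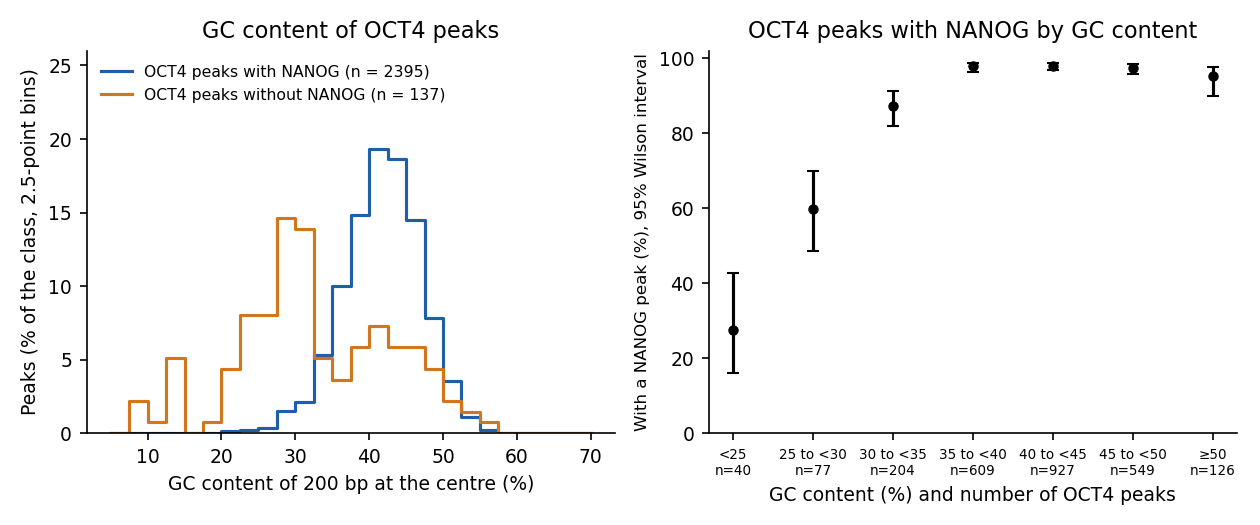
Left, distribution of GC content (horizontal axis, percent of 200 bp around the centre, bins of 2.5 points) as percent of each class (vertical axis) for shared OCT4 peaks (n = 2395) and OCT4 peaks without NANOG (n = 137). Right, share of OCT4 peaks with a NANOG peak (vertical axis, percent, bars are 95% Wilson intervals) by GC content, from 27.5% below 25% GC to 98.1% between 40% and 45%.

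Low-GC peaks of both classes nearly lacked MED12. It was at 0 of the 60 without NANOG (upper Wilson bound 6.02%) and at 1 of the 57 that were shared (1.75%). MED1 was at 2 of the 60 (3.33%, 0.919 to 11.4) and at 6 of the 57 (10.5%, 4.91 to 21.1). Among OCT4 peaks with at least 30% GC, MED12 was at 25.4% of shared peaks and at 6.49% of the 77 without NANOG. MED1 was at 11.5% and 6.49% there, a difference of 4.97 points (-2.95 to 8.90) that contains 0.

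A stretch of chromosome 14, picked out after the positions were seen, held many of the peaks without NANOG. Between 70 and 110 Mb lay 16 of the 137 (11.7%, 7.32 to 18.1), against 58 of the 2395 shared peaks (2.42%) and 2.80% of NANOG peaks without OCT4. The same stretch held 13.0% of the MED1 list and 5.98% of the MED12 list. The 16 peaks had a median GC content of 25.25%. Their median fold over the local background was 4.695, against 7.85 at peaks without NANOG elsewhere. Input tags exceeded their floor at 18.75% of the 16 and at 25.9% of the 58 shared peaks. The figure was 6.61% for peaks without NANOG elsewhere and 9.73% for all shared peaks. The part of the input was not tested. The peaks named above near Klf5, Spry2, Diap3, Tnfsf11 and Gm6994 lie in this stretch. Inside the stretch 78.4% (67.7 to 86.2) of OCT4 peaks were shared, and outside it 95.1% (94.1 to 95.9). Chromosomes 19 and X, with 68 and 50 OCT4 peaks, held no peak without NANOG, where the share over the whole list was only 5.41%.

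The OCT4 element was present in both OCT4 classes, with few matches at GC-poor peaks without NANOG. The composite letters TTGTNATGC were within the 200 bp window of 297 shared peaks (12.4%, 11.1 to 13.8) and of 16 OCT4 peaks without NANOG (11.7%, 7.32 to 18.1). The windows 10 kb away had 0.606% for the shared class and 0 of 274 (upper Wilson bound 1.38%) for the other, and NANOG peaks without OCT4 had 4.24%. The shares of the OCT4 classes differed by 0.722 points (-5.85 to 5.30), while each exceeded that of NANOG peaks without OCT4, by 8.17 points (6.85 to 9.59) and by 7.44 points (3.07 to 13.9). Among peaks with at least 30% GC, the composite was at 12.53% of shared peaks and at 19.5% of those without NANOG. Below 30% GC it was at 4 of 57 shared peaks (7.02%, 2.76 to 16.7). Of the 60 peaks without NANOG below 30% GC, 1 held it (1.67%, 0.295 to 8.86).

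The octamer ATGCAAAT was in 11.2% of shared peaks, in 8.03% of OCT4 peaks without NANOG and in 6.16% of NANOG peaks without OCT4, against 1.34%, 2.19% and 1.45% of the windows 10 kb away. Either of these sets of letters was in 539 shared peaks (22.5%) and in 22 OCT4 peaks without NANOG (16.1%), so most OCT4 peaks held no exact match. The SOX letters CCATTGT were in 9.98%, 3.65% and 8.26% of the 3 classes in that order, and shared peaks had 6.33 points more than OCT4 peaks without NANOG (1.58 to 8.76). In the windows 10 kb away the SOX letters were in 2.99%, 2.55% and 3.10%. The letters GCCATTA, a core read by NANOG, were in 2.80% of shared peaks, in 0 of 137 OCT4 peaks without NANOG (upper Wilson bound 2.73%) and in 3.19% of NANOG peaks without OCT4, against 1.84%, 1.82% and 1.81% of the windows 10 kb away. The KLF letters GGGTGTGG were in 2.51%, 2.19% and 3.96%, against 1.34%, 1.82% and 1.41% of those windows, and the ESRRB letters CAAGGTCA in 4.18%, 1.46% and 6.15%, against 1.17%, 2.55% and 1.31%. At OCT4 peaks without NANOG, the Wilson intervals of the SOX, NANOG, KLF and ESRRB shares contained the share of their own windows 10 kb away. All were searched on both strands, and a missing match says only that these letters are absent from the window.

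Where a shared peak held a single composite match, the OCT4 centre lay somewhat nearer to it than the NANOG centre. Matches were searched in the 200 bp around the OCT4 centre. This search bounds the OCT4 distance but not the NANOG distance, and its part in the difference was not tested. Over 292 pairs with a single composite match, the median distance from it was 27.5 bp for OCT4 and 35.5 bp for NANOG. OCT4 was nearer in 169 (57.9%). Over 251 pairs with a single octamer match the medians were 30 and 38 bp, and OCT4 was nearer in 147 (58.6%). The Pou5f1 and Sox2 sequences printed above are of this kind, with the match 2 and 9 bp from the OCT4 centre. The composite was in 13.8% of OCT4 peaks in group 1, 19.8% in group 2 and 13.0% in group 10, with no steady order between them.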

How the data were processed

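OCT4 and NANOG ChIP DNA and their common input, from clone A6, were sequenced once each. Alignment by the authors used BWA and mm9, duplicate reads were dropped, and HOMER called peaks in each library against the input (versions not given in the sources used here). The deposited normalized tag count is a signal relative to library size. The focus ratio deposited with it is a fraction, and the authors' score is the peak caller's number. The total tags of the NANOG list are whole counts as deposited and were not used in a test. HOMER also gave the authors a p-value and a fold against the input, which is a ratio, and only the fold was used here. Library depth was read from the equal steps of the tag count, on which 99.4% of OCT4 and 99.9% of NANOG peaks fell, assuming a scale of 10 M tags.

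Peaks were shared when less than 100 bp apart. Genes came from GENCODE vM1. Of 96 listed genes 95 were found, 1 by an older symbol (Tfcp2l1), and Sox1 was not. Named peaks were the 10 highest OCT4 peaks with and without NANOG and the 5 pairs with the largest rank excess in each direction, and named genes those of the lists. Some genes that these rules cover are not reported here. The peaks and lists were chosen with earlier results of these data known. Peaks of 1 library are not replicates, so no test was run, and shares carry 95% Wilson and differences 95% Newcombe intervals. Motifs were exact matches in 200 bp. Repeats were not masked. Alternatives changed the window, the fold threshold, the list length, the gene set and the motif window, and 2 were added after seeing the data, OCT4 peaks with at least 30% GC and those outside chromosome 14 from 70 to 110 Mb. The steps ran in Python 3.11.15 (numpy 2.4.6, scipy 1.17.1, pandas 2.3.3, matplotlib 3.10.9) beside bedtools 2.31.1 and were tested on simulated data.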

Additional observations from a re-analysis of the deposited data

How the results depend on the processing

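Over 91 alternatives to 18 results, 65 left the value inside its 95% interval or, for ratios of medians and correlations, which have none, within 1.5 times. Another 22 moved it further, and 4 turned the sign of a value whose interval lay off 0 or that has none. Differences whose interval contained 0 also changed sign, to -0.060 points for clustering at 25 kb, -5.14 for housekeeping and 0.743 for lineage genes at 20 kb, and -0.470 for the composite between OCT4 classes with a 100 bp window. The share of OCT4 peaks with NANOG was 92.3% with direct overlap, 96.0% with a 1000 bp window, 88.2% with centres within 100 bp, 99.1%, 82.7% and 98.5% with OCT4, NANOG or both lists limited to peaks at least 8 times the input, 59.4% with lists of equal length and 96.8% with GC of at least 30%. With the same window for Mediator, the MED12 difference was 16.1 points with direct overlap, 25.2 with 1000 bp, 13.4 with centres within 100 bp and 34.5 with both lists at 8 times the input. The MED1 difference was 11.002 points with 1000 bp and -7.49 with OCT4 at 8 times the input, where 3 peaks lacked NANOG. The promoter difference was 0.413 points with centres within 100 bp, -1.54 with OCT4 and -1.55 with both lists at 8 times the input, where 3 and 5 peaks lacked NANOG. The OCT4 signal difference was 0.17 with OCT4 and 0.17 with both at 8 times the input, and the NANOG one 0.74 with NANOG at 8 times the input. The log2 ratio of distances to the nearest start site was -0.0085 with all genes. The excess over all genes was 88.8 points at 50 kb and 94.9 at 20 kb for core factors and 79.5 at 20 kb for known targets. The composite excess over the flanks was 8.71 points with a 100 bp window, and the difference between OCT4 classes was -6.95 points with GC of at least 30%. The cause of these changes was not tested.

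With 1 library per factor, in 1 clone that overexpressed SIM2, counting error is the only error known. The absence of a NANOG peak means only that none passed the peak caller's threshold. No paired analysis was possible because OCT4 and NANOG have 1 library each among those used here.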
